A study of Mus musculus with 4 samples.

Results

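The activity-dependent synaptic effectors examined here were a list of 10 genes linked to neuronal firing or to the synapse: Arc, Npas4, Bdnf, Homer1, Nptx2, Nptx1, Vgf, Scg2, Ptgs2 and Inhba. Npas4 encodes a transcription factor rather than a synaptic protein, and of the pentraxins Nptx2 is the one induced by activity. The rule takes the 10 genes by gene symbol and uses no measured value, but the list was drawn up with earlier results of these data known. They made up 10 of the 18386 features counted in the cortex, with 24 of the 37539 counted transcripts. The deposited symbols of 20 of these transcripts matched a name once letter case was ignored, and 4 more, of Scg2 and Vgf, were found by identifier. All 10 genes were counted in every library, and the lowest count of any of them was 110.

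RNA depleted of ribosomal RNA was sequenced from the cortex of 4 single mice, 2 APP and 2 WT, all male and 12 months old on a C57BL/6 strain background. The APP mice were APPswe/PS1ΔE9 double transgenic animals, a model of Alzheimer's disease in which the Prnp promoter drives a mutant APP and a mutant presenilin 1 in the brain. The WT mice carried neither transgene and were C57BL/6J animals. Every animal was anaesthetised with pentobarbital and killed by dislocation before the cortex was dissected, and no stimulus is described in the study's methods.

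In neurons, calcium entry through NMDA receptors and voltage-gated channels activates kinases that act on CREB, SRF and MEF2, which then switch on immediate-early genes within minutes. Some of these genes encode transcription factors such as Fos, Egr1 and Npas4, and others encode proteins that change the synapse directly: Arc removes AMPA receptors, the short Homer1a form uncouples metabotropic glutamate receptors from their scaffold, and secreted factors such as BDNF act on neighbouring cells. In the cortex, levels of these mRNAs are widely used as a record of recent activity.

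The libraries held between 28525117 and 43881196 counts. App and Prnp, which check the genotype because the transgene carries an App coding sequence and Prnp promoter elements, were higher in both APP libraries, with log2 fold changes of 1.52 and 1.71. The reference genes Gapdh and Actb had log2 fold changes of -0.12 and 0.00, with adjusted p of 0.593 and 0.996 in edgeR's quasi-likelihood test. Markers of excitatory cortical neurons were present, with a summed level of 4630 to 5672 CPM (read counts scaled to each library's size, with TMM) in APP and 5325 to 5370 CPM in WT.

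One of the 10 genes, Arc, was lower in APP past both cut-offs used by the study, an adjusted p under 0.05 and a change of 1.5-fold or more. Of all features, 7, or 0.0381%, were lower past both cut-offs, and 162, or 0.881%, changed in either direction. At an adjusted p under 0.05 alone, Arc and Homer1 were lower, against 0.12% of all features, and 1.14% of features passed in either direction. DESeq2 placed 4 genes under that threshold, against 0.337% of features lower by that test, and edgeR's exact test 5, against 0.571%. Both APP libraries lay below both WT libraries for 7 of the 10 genes, against 21.4% of all features, and the log2 fold change was below 0 for 9 of 10, against 50.3%. The median log2 fold change was -0.41 over the 10 genes and -0.00105 over all features. In this bulk tissue, fewer cells of a type and less RNA per cell cannot be told apart.

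**Figure D1:**
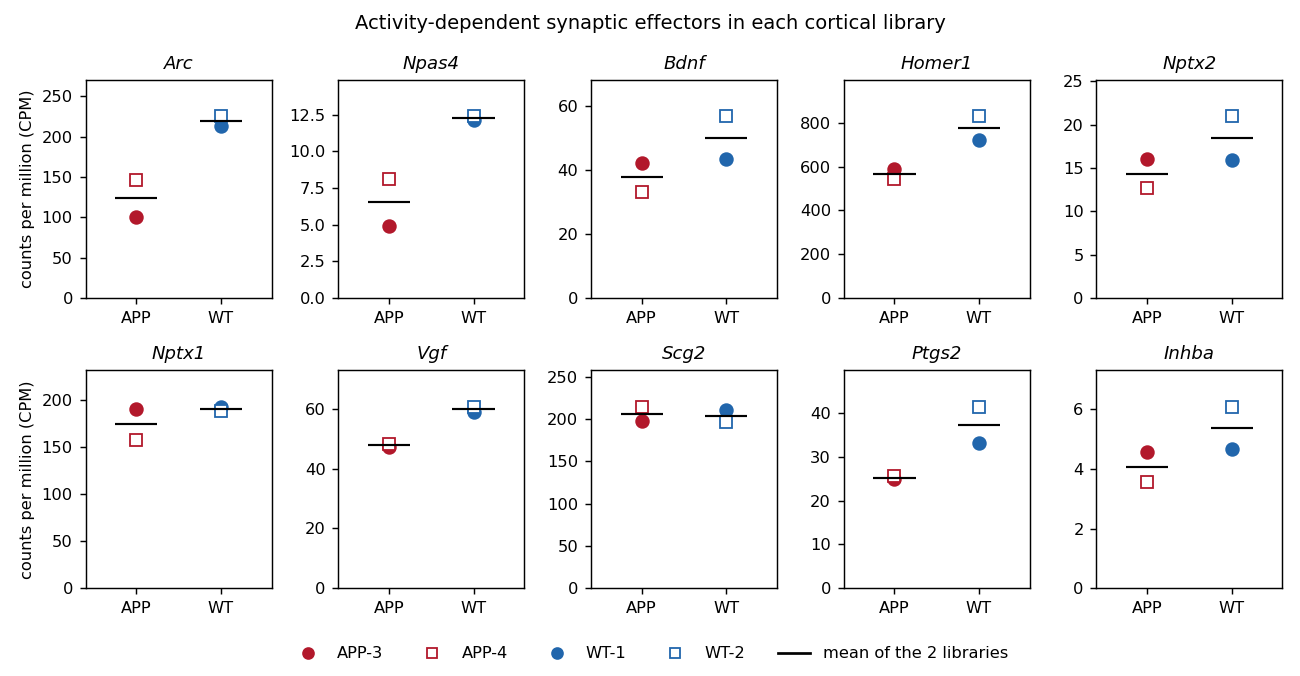
CPM of each of the 10 genes (vertical axis, from 0, on its own scale in each panel) in the 2 APP and 2 WT libraries, with a bar at the mean of each group. The APP and WT points do not overlap for Arc, Npas4, Bdnf, Homer1, Vgf, Ptgs2 and Inhba, and overlap for Nptx2, Nptx1 and Scg2.

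**Figure D2:**
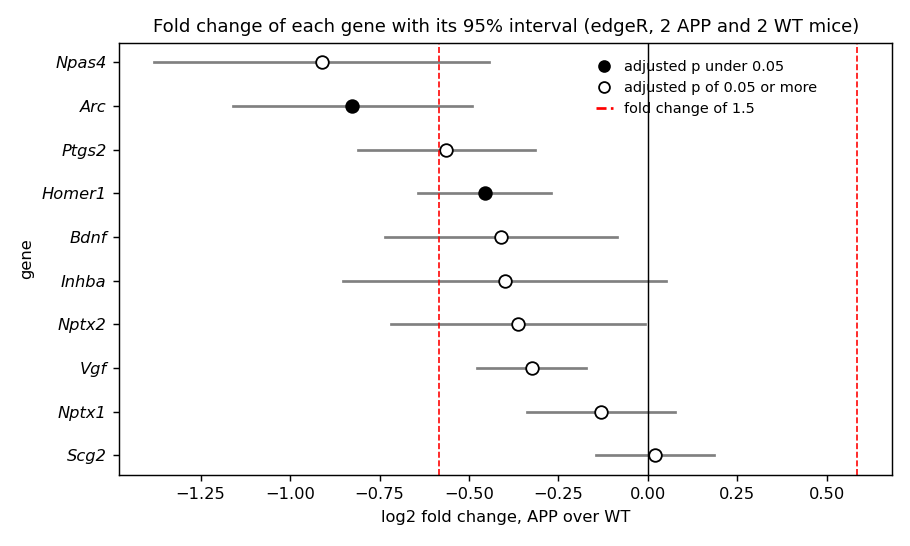
Log2 fold change of APP over WT (horizontal axis) for each gene, with the 95% interval from edgeR's quasi-likelihood fit as a line, filled points for an adjusted p under 0.05 and dashed lines at a fold change of 1.5. Only the points of Npas4 and Arc lie beyond the cut-off, and the interval of Scg2, from -0.15 to 0.18, lies around 0.

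The sequence that sets the short and the long Homer1 proteins apart lies at the end of the fifth exon of the gene, chr13:93355940-93356079 on the plus strand (GRCm38). The lines below give the last 24 bases of that exon, which the transcripts share, in lower case, and the coding bases that follow in capitals. They are shown because the count of the short form Homer1-204, not divided by length, was the largest of any Homer1 transcript. The bases were taken from GENCODE M21.
Homer1-201 (long form): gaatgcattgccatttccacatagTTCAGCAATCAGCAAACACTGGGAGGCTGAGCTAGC
Homer1-203 (long form with an added exon): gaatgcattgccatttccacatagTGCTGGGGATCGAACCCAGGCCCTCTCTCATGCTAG
Homer1-204 (short form): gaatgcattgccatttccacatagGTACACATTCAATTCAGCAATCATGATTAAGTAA
In Homer1-204 the fifth exon ran on for 4383 bases into the intron and the reading frame ended after 34 further bases, the stop codon included, so that it encodes 186 codons. Homer1-201 and Homer1-203 spliced to 4 and 5 further exons and encode 354 and 366 codons, including the coiled coil through which long Homer proteins join.

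Start-site windows from RefSeq (GRCm38.p6, 250 bases before to 50 after the start) were at hand for 6 of the 10 genes, in 13 windows. The cAMP response element, the site that CREB binds, was searched on both strands as TGACGTCA and as its half-site TGACG, which the full element contains. The full element stood in 1 window, that of Scg2, against 1.79% of 32851 windows. The half-site stood in 5 windows of 5 genes, Scg2, Homer1, Bdnf, Npas4 and Ptgs2, against 20.8% of all windows. The AP-1 site TGANTCA, bound by Fos and Jun proteins, stood in 1 window, of Bdnf, against 7.81%, and the serum response element in none, against 1.63%. The stretches with half-sites before the start of Homer1-207 (chr13:93303607-93303756, plus strand) and of Bdnf-209 (chr2:109692286-109692435, plus strand), and the element of Scg2 (chr1:79440076-79440105, minus strand), are given below with the matches in capitals.
Homer1: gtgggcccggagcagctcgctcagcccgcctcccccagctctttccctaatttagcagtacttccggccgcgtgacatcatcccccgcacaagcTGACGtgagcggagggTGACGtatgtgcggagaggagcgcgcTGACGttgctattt
Bdnf: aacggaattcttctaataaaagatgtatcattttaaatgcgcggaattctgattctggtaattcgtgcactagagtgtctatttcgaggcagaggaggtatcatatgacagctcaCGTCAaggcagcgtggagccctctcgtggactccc
Scg2: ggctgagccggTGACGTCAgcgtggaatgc
The element of Scg2 stood 68 bases before the RefSeq start, which GENCODE places inside the first exon of Scg2-201. These matches describe the letters of the windows only. Of the genes that hold them, Homer1 was lower in APP at an adjusted p under 0.05, while Scg2, the gene with the full element, had the log2 fold change nearest to 0.

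Npas4 (chr19:4984355-4990316, minus strand) encodes a neuron-specific transcription factor of the bHLH-PAS family that is induced by calcium influx. Its level was 4.89 CPM in APP-3, 8.14 CPM in APP-4, 12.2 CPM in WT-1 and 12.4 CPM in WT-2, from 142, 252, 535 and 440 counts. Both APP libraries lay below both WT libraries, and the APP libraries also lay apart from each other. On the log2 scale APP over WT was -0.91 (SE 0.20), the lowest of the 10, and missed the threshold at an adjusted p of 0.0926 in edgeR's quasi-likelihood test. Its single counted transcript, Npas4-201, holds the same counts, so it is not a separate result. What differs is the fit over all transcripts, in its shared spread and adjustment. In that fit, by the same test, Npas4-201 had a log2 fold change of -0.91 and an adjusted p of 0.0180, past both cut-offs. DESeq2, edgeR's exact test and edgeR's likelihood ratio test also placed the gene past both, with adjusted p of 0.00478, 0.00323 and 0.00306. Leaving out a library moved the gene's log2 fold change to -0.59 (adjusted p 0.00283) without APP-3 and to -1.32 (9.88e-08) without APP-4, and the adjusted p was 0.186 without WT-2.

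Arc (chr15:74669083-74672570, minus strand) encodes a dendritic protein that speeds the endocytosis of AMPA receptors. It stood at 100.5 CPM in APP-3, 147 CPM in APP-4, 213 CPM in WT-1 and 226 CPM in WT-2, which gives 124 ± 32.7 CPM in APP and 219 ± 8.77 CPM in WT (SD, n = 2). The groups did not overlap, and the APP mean was 56.4% of the WT mean. The log2 fold change was -0.83 (SE 0.15, 95% interval -1.16 to -0.49), with an adjusted p of 0.0376 in edgeR's quasi-likelihood test. This call was lost with DESeq2, at an adjusted p of 0.0978, and without WT-2, at 0.0508. Without APP-3 the log2 fold change was -0.58, short of the fold cut-off, and without APP-4 it was -1.12. Its transcripts Arc-201 and Arc-202 have 3 and 2 bases of their own, and Arc-201 took between 99.1% and 99.3% of its counts in every library.

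Homer1 (chr13:93299635-93405129, plus strand) encodes scaffold proteins that tie group 1 metabotropic glutamate receptors to intracellular calcium stores and to Shank. Over all its transcripts, it was at 587 and 544 CPM in APP-3 and APP-4 and at 722 and 831 CPM in WT-1 and WT-2. The groups did not overlap, and the APP libraries lay closer together than the WT libraries. Its log2 fold change was -0.46 (SE 0.08) and the adjusted p 0.0382 in edgeR's quasi-likelihood test, so the gene was lower in APP but short of the fold cut-off. The adjusted p was 0.056 on library totals without TMM and 0.478 without WT-2.

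Among the 7 counted Homer1 transcripts, edgeR's test on transcripts gave an adjusted p under 0.05 for 2, both lower in APP, and the log2 fold changes of all 7 were below 0, with groups that overlapped for Homer1-205. The short form Homer1-204, known as Homer1a, is induced by activity, and it competes with the long forms because it lacks their coiled coil. It was at 288 CPM in APP-3, 269.8 CPM in APP-4, 371 CPM in WT-1 and 442 CPM in WT-2, with a log2 fold change of -0.55 (SE 0.09, 95% interval -0.73 to -0.36) and an adjusted p of 0.00362. Both APP libraries lay well below both WT libraries. Without WT-2 it was -0.41 with an adjusted p of 0.147, and without APP-3 and without WT-1 it passed the fold cut-off as well. The long form Homer1-203 changed by -0.43 (SE 0.09) with an adjusted p of 0.0236, which rose to 0.449 without WT-2, while the long forms Homer1-201 and Homer1-202 changed by -0.33 (SE 0.09) and -0.43 (SE 0.10) with adjusted p of 0.122 and 0.0522. The 95% intervals of Homer1-204 and Homer1-201, the latter from -0.52 to -0.14, overlapped, and no test of the difference between the forms was made. Homer1-205, Homer1-206 and Homer1-207 end in other exons and encode 203, 233 and 193 codons, so they are also shorter than the long forms. In edgeR's test on transcripts they had log2 fold changes of -0.19, -0.35 and -0.50 and adjusted p of 0.901, 0.138 and 0.289.

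Homer1-204 made up 48.6% (exact 95% binomial interval 47.8% to 49.3%) of the Homer1 counts in APP-3, 49.9% (49.1% to 50.6%) in APP-4, 51.6% (51.1% to 52.2%) in WT-1 and 53.2% (52.6% to 53.8%) in WT-2. The share was lower in both APP libraries than in both WT libraries, and libraries of 1 group also differed beyond counting error. Shares are of counts and were not divided by length, which is 5713 bases for Homer1-204 and 2765 bases for Homer1-201. The share of Homer1-201 took the opposite course, at 36.3%, 33.6%, 32.6% and 31.9% in the same order, although its level was lower in APP, at -0.33. Shares of 1 total are tied to each other, so this is not a separate result. Of the bases of Homer1-204, 76.7% were in no other counted transcript, against 0 bases of Homer1-201, Homer1-203 and Homer1-206. These 4383 bases of Homer1-204 lie in an intron of the long forms. The part of unspliced Homer1 RNA in its counts was not tested. How the alignment divided reads shared by transcripts was not stated, and the counts of transcripts without bases of their own depend on it.

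**Figure D3:**
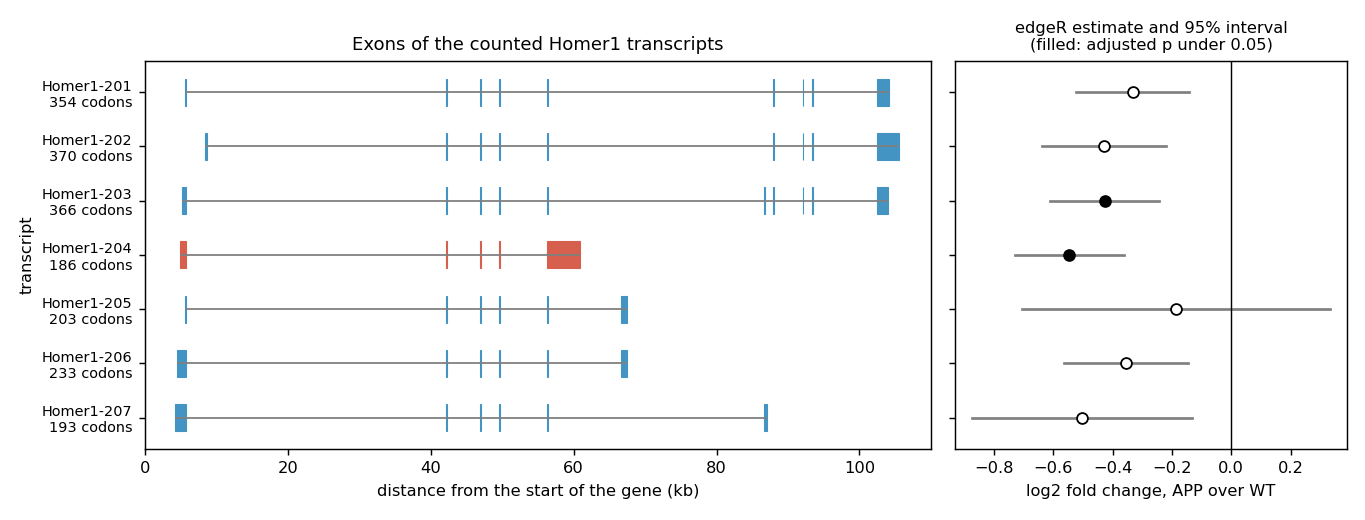
Left, exons of the 7 counted Homer1 transcripts by distance from the start of the gene (kb), with the number of codons of each and Homer1-204 in red; right, log2 fold change of APP over WT with its 95% interval, filled at an adjusted p under 0.05. Homer1-204 and Homer1-203 carry filled points, and the interval of Homer1-205 includes 0.

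The neuronal pentraxins are secreted proteins that gather AMPA receptors at excitatory synapses, and Nptx2 is the one induced by activity. Nptx2 (chr5:144545902-144557478, plus strand) was at 16.0 CPM in APP-3, 12.7 CPM in APP-4, 15.9 CPM in WT-1 and 21.0 CPM in WT-2, so that APP-3 and WT-1 were alike and the groups overlapped. Its log2 fold change was -0.36 (SE 0.16, 95% interval -0.72 to -0.01), with an adjusted p of 0.397. It was -0.15 without WT-2 and -0.20 without APP-4 (adjusted p 0.9997 and 0.444), and -0.55 without WT-1 and -0.54 without APP-3 (0.197 and 0.00501). Nptx1 (chr11:119538719-119547753, minus strand) was at 190 CPM, 157 CPM, 193 CPM and 188 CPM in the same order, and only APP-4 stood below the others. Its log2 fold change of -0.13 (SE 0.09, 95% interval -0.34 to 0.07) had an adjusted p of 0.629.

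Bdnf (chr2:109674700-109727007, plus strand) encodes the neurotrophin that signals through TrkB to strengthen synapses. It stood at 42.1 CPM in APP-3, 33.2 CPM in APP-4, 43.3 CPM in WT-1 and 56.8 CPM in WT-2. The APP libraries lay below the WT libraries, but the gap between APP-3 and WT-1 was smaller than the gap within either group. The log2 fold change was -0.41 (SE 0.14, 95% interval -0.74 to -0.09) with an adjusted p of 0.278. It passed both cut-offs without APP-3, at -0.59 and an adjusted p of 9.52e-05, and without WT-1, at -0.59 and 0.0353, while it was -0.24 with an adjusted p of 0.152 without APP-4 and -0.20 with 0.997 without WT-2.

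Bdnf transcripts differ in their first exon, each with its own promoter, and share the exon that encodes the mature protein. Bdnf-201 took between 94.9% and 95.8% of the gene's counts, although only 15.0% of its bases were its own, and it changed by -0.41 with an adjusted p of 0.195. Bdnf-209, which starts behind the half-site printed above, had 16, 18, 41 and 54 counts in APP-3, APP-4, WT-1 and WT-2. Both APP counts lay below both WT counts, and the log2 fold change was -1.09 (SE 0.35, 95% interval -1.84 to -0.34) with an adjusted p of 0.243. Bdnf-205 had 30, 21, 26 and 18 counts and Bdnf-207 had 12, 14, 13 and 18, with log2 fold changes of 0.63 and 0.13 and adjusted p of 0.679 and 0.971.

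Vgf and Scg2 encode granins, precursors of neuropeptides that are packed into dense-core vesicles. Vgf (chr5:137026392-137033351, plus strand) was at 47.3 CPM and 48.2 CPM in APP and at 58.9 CPM and 60.7 CPM in WT. The libraries of each group were nearly level and the groups lay apart. Its log2 fold change was -0.33 (SE 0.07) and the adjusted p 0.0655 in edgeR's quasi-likelihood test, and the 95% interval ran from -0.48 to -0.17. Scg2 (chr1:79434669-79440120, minus strand) was at 198 CPM and 215 CPM in APP and at 211 CPM and 196 CPM in WT, and the groups overlapped. Its log2 fold change of 0.02 (SE 0.07) had a 95% interval of -0.15 to 0.18 and an adjusted p of 0.954.

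Ptgs2 (chr1:150100031-150108227, plus strand) encodes cyclooxygenase 2, the inducible enzyme of prostaglandin synthesis, which excitatory neurons express with activity. It was at 24.9 CPM in APP-3, 25.5 CPM in APP-4, 33.2 CPM in WT-1 and 41.4 CPM in WT-2. The APP libraries were level with each other and below both WT libraries. The log2 fold change was -0.56 (SE 0.11, 95% interval -0.81 to -0.32). In edgeR's quasi-likelihood test the adjusted p were 0.0535 for the gene and 0.0134 for Ptgs2-201, its only counted transcript, which holds the same counts. Without WT-2 these rose to 0.263 and 0.283, and without WT-1 both passed the fold cut-off, at -0.72. Inhba (chr13:16011851-16031621, plus strand) encodes the subunit of activin A, a secreted factor of the TGF-β family that is induced in neurons by NMDA receptor signalling. It was the least counted of the 10, at 4.58, 3.55, 4.67 and 6.09 CPM in APP-3, APP-4, WT-1 and WT-2, and APP-3 and WT-1 were nearly level. The log2 fold change was -0.40 (SE 0.20, 95% interval -0.85 to 0.05) with an adjusted p of 0.476, and it ranged from -0.59 without APP-3 to -0.20 without WT-2.

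Over transcripts, Arc-201 and Npas4-201 were lower past both cut-offs, 2 of 24, against 0.0586% of all transcripts. At an adjusted p under 0.05 alone there were 5, with Ptgs2-201, Homer1-203 and Homer1-204, against 0.147%. Transcripts of the same gene share bases, and Npas4-201 and Ptgs2-201 hold the counts of their genes, so the 24 are not separate results. The log2 fold change was below 0 for 19 of the 24, and the share below 0 over all transcripts was not worked out. Of the 5 above 0, those of Vgf-204, Bdnf-205 and Bdnf-207 rested on at most 30 counts in any library, and those of Scg2-201 and Scg2-202 were 0.02 and 0.03.

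The levels of the 10 genes can be ordered once each transcript's CPM is divided by its length. In WT, Homer1 stood highest at 201 ± 18.4 CPM per kb, followed by Scg2 at 81.1 ± 4.22, Arc at 71.8 ± 2.87, Nptx1 at 36.5 ± 0.650, Vgf at 23.8 ± 0.623, Bdnf at 11.8 ± 2.24, Ptgs2 at 8.38 ± 1.31, Nptx2 at 7.27 ± 1.42, Npas4 at 3.39 ± 0.0465 and Inhba at 0.842 ± 0.158 CPM per kb (SD, n = 2). Among neighbours in that order, only the WT libraries of Ptgs2 and Nptx2 overlapped. In APP the order was the same, but Arc, at 40.5 ± 10.7 CPM per kb, overlapped with Nptx1, at 33.3 ± 4.46, and Ptgs2, at 5.66 ± 0.109, with Nptx2, at 5.65 ± 0.930.

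The 2 mice of a group were not interchangeable for these genes. Between the APP mice, Arc and Npas4 were higher in APP-4 than in APP-3, with ratios of 1.46 (95% interval of counting error 1.39 to 1.53) and 1.66 (1.35 to 2.06). Scg2 was slightly higher, with a ratio of 1.08. Bdnf, Nptx2, Nptx1 and Homer1 were lower in APP-4, with ratios of 0.790, 0.791, 0.827 and 0.927 and intervals below 1, while the intervals of Vgf, Ptgs2 and Inhba included 1. Between the WT mice, Bdnf, Nptx2, Inhba, Ptgs2 and Homer1 were higher in WT-2, with ratios of 1.31, 1.32, 1.31, 1.25 and 1.15 and intervals above 1. Arc was higher by a ratio of 1.06, Scg2 was lower at 0.929, and Npas4, Nptx1 and Vgf had intervals that included 1. Over the 14667 genes above 1 CPM, the central 90% of log2 ratios ran from -0.38 to 0.47 between the APP mice and from -0.33 to 0.29 between the WT mice. The log2 ratios of Arc and Npas4 in APP, 0.55 and 0.73, and those of Bdnf, Nptx2, Inhba and Ptgs2 in WT, 0.39, 0.40, 0.39 and 0.32, lay outside these ranges.

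**Figure D4:**
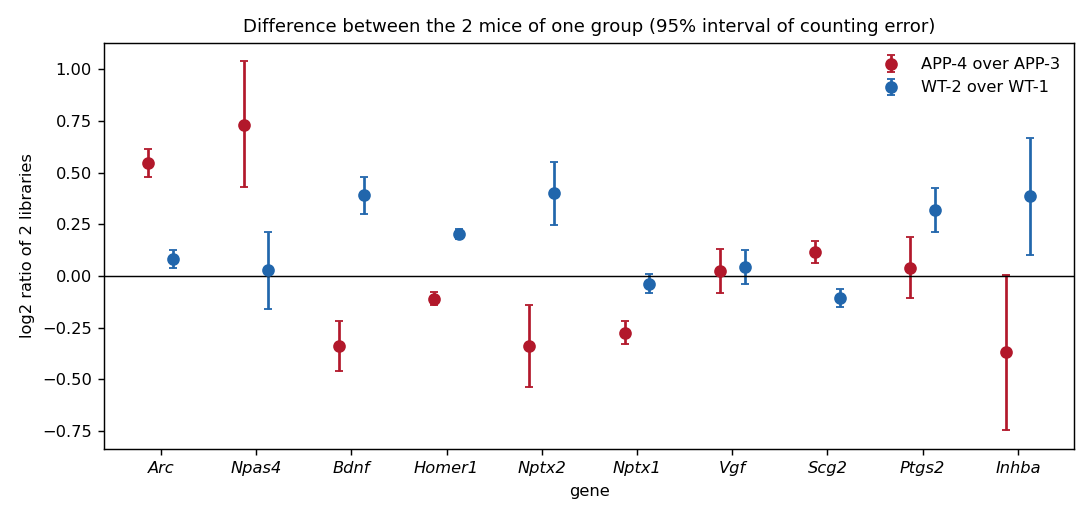
Log2 ratio between the 2 libraries of each group (vertical axis) for each gene, APP-4 over APP-3 in red and WT-2 over WT-1 in blue, with 95% intervals of counting error. Arc and Npas4 stand high in red, and Bdnf, Nptx2 and Inhba stand below 0 in red and above 0 in blue.

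Among the immediate-early transcription factors, the 18 counted genes had a median of -0.34 on the log2 scale, and 16 were below 0. Egr1, a zinc finger factor, was the one at an adjusted p under 0.05, at 86.3 and 105 CPM in APP and 134 and 133 CPM in WT, with a log2 fold change of -0.48 (SE 0.09) and an adjusted p of 0.0469. None passed both cut-offs, 10 had an unadjusted p under 0.05, and DESeq2 gave 1 gene and edgeR's exact test 4 genes an adjusted p under 0.05. Over all features, 12.1% had an unadjusted p under 0.05 in either direction, 1.83% an adjusted p under 0.05 with DESeq2 and 3.03% with the exact test. The adjusted p of Egr1 was 0.110 without WT-1 and 0.154 without WT-2. Atf3, a stress-induced factor of the ATF family, stood on the other side of 0, at 2.55 and 2.20 CPM in APP and 0.865 and 1.33 CPM in WT, with a log2 fold change of 1.13 (SE 0.28) and adjusted p of 0.131 in the quasi-likelihood test and 0.0210 in the exact test. Fos, a subunit of AP-1, was at 15.4 CPM in APP-3, 28.0 CPM in APP-4, 33.4 CPM in WT-1 and 29.4 CPM in WT-2. Its log2 fold change was -0.53 (SE 0.22) with an adjusted p of 0.369, and APP-4 lay near the WT libraries. Nr4a1, an orphan nuclear receptor, was at 19.4 and 29.5 CPM in APP and 33.2 and 31.9 CPM in WT (log2 fold change -0.41, adjusted p 0.345), and Junb, a partner of Fos, changed by -0.37 (adjusted p 0.141). APP-3 was thus the lower of the APP libraries for Fos, Nr4a1, Egr1 and Junb as for Arc and Npas4.

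The upstream signalling list, of kinases, calcium channels, NMDA receptor subunits and activity-regulated factors, held 26 counted genes, and their median was -0.06 on the log2 scale. In edgeR's quasi-likelihood test 0 passed an adjusted p under 0.05 and 5 an unadjusted p under 0.05, while DESeq2 passed 1 and the exact test 0. Creb1 changed by -0.00 (adjusted p 0.996) and Srf by -0.23 (adjusted p 0.357). All 38 of the other activity-induced effectors were counted, with Ccn1 listed under its older symbol Cyr61 too. Of them 30 were below 0, and the median was -0.15. One, Rgs4, a brake on G-protein signalling, had an adjusted p under 0.05, at 0.0269, with 259.5 and 264 CPM in APP and 337 and 348 CPM in WT. Its adjusted p was 0.2002 without WT-1 and 0.362 without WT-2. Among its members, Nrn1, a secreted plasticity factor, changed by -0.25 (adjusted p 0.462), the kinase Plk2 by -0.19 (0.270), Gadd45b, a stress-response gene linked to DNA demethylation, by -0.39 (0.265), Rgs2 by -0.01 (0.974), the protocadherin Pcdh8 by 0.06 (0.887) and the neuropeptide Sst by -0.14 (0.577). The opioid precursor Penk was at 34.3 CPM in APP-3 and 80.5 CPM in APP-4, around its WT levels of 59.7 and 61.9 CPM. The summed level of 9 striatal markers, 304 CPM in APP-3 and 601 CPM in APP-4 against 399 and 456 CPM in WT, moved with it. The part of striatal tissue in that difference was not tested. Nor was its part in the differences of Arc, Npas4, Fos, Nr4a1, Egr1 and Junb between the APP libraries.

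Few partners of the 10 genes passed the threshold. Of 15 genes of the Homer and metabotropic receptor scaffold, 0 passed an adjusted p under 0.05 in edgeR's quasi-likelihood test, in DESeq2 or in the exact test, 3 had an unadjusted p under 0.05, and the median was -0.07, with Homer2 at 0.01, Grm5 at -0.06, Shank1 at 0.22 and the weakly counted Homer3 at 0.36 (adjusted p 0.990, 0.788, 0.412 and 0.577). Of 20 AMPA receptor and pentraxin partners, 0 passed in any of these tests, 1 had an unadjusted p under 0.05, and the median was -0.03. The pentraxin receptor Nptxr changed by -0.14 (adjusted p 0.424), Gria1 by 0.06 (0.813) and Gria2 by -0.00 (0.991). Of 13 counted genes of Bdnf processing and signalling, 0 passed in the quasi-likelihood test, against 1 with DESeq2 and 2 with the exact test, and 4 had an unadjusted p under 0.05. The BDNF receptor gene Ntrk2 changed by 0.02 (adjusted p 0.929), and Ngfr, the p75 receptor that binds proBDNF, was at 2.76 and 3.68 CPM in APP and 1.84 and 1.75 CPM in WT, with a log2 fold change of 0.84 (SE 0.22) and an adjusted p of 0.149. Pcsk1, the convertase that processes proBDNF and Vgf, was at 59.8 and 59.4 CPM in APP and 75.2 and 74.7 CPM in WT, with a log2 fold change of -0.33 (SE 0.06) and an adjusted p of 0.0539.

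Among 16 granins and dense-core vesicle genes, 12 were below 0, the median was -0.11 and 0 passed in the quasi-likelihood test, against 1 with DESeq2, 1 with the exact test and 4 at an unadjusted p under 0.05. Chga changed by -0.19 (adjusted p 0.305), Chgb by -0.13 (0.614), Scg3 by 0.12 (0.517) and Scg5 by 0.14 (0.775). In the prostaglandin list, 2 of 17 genes were higher in APP past both cut-offs. Hpgds, the haematopoietic prostaglandin D synthase of microglia, was at 11.3 and 10.1 CPM in APP and 5.12 and 6.12 CPM in WT, with a log2 fold change of 0.94 (SE 0.15) and an adjusted p of 0.0236. Tbxas1, thromboxane A synthase, was at 3.86 and 3.81 CPM in APP and 1.46 and 1.58 CPM in WT, with a log2 fold change of 1.34 (SE 0.19) and an adjusted p of 0.0171. Without WT-1 the adjusted p of Hpgds and Tbxas1 were 0.0970 and 0.0503, so neither passed. Both act on the product of cyclooxygenase, whose inducible form, Ptgs2, lay on the other side of 0. The constitutive Ptgs1 changed by 0.05 (adjusted p 0.906), Ptges by -0.05 (0.959) and the degrading enzyme Hpgd by 0.89 (0.0770), and the receptor Ptger4 had between 12 and 31 counts.

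In the activin list, 0 of 15 counted genes passed in the quasi-likelihood test and 0 with DESeq2, 1 passed with the exact test and 1 had an unadjusted p under 0.05, and the median was -0.00. Fst, whose product follistatin binds and blocks activin, was at 2.10 and 1.61 CPM in APP and 3.50 and 4.26 CPM in WT, with a log2 fold change of -1.06 (SE 0.22) and an adjusted p of 0.0649. Inhbb changed by 0.25 (adjusted p 0.626), and the receptors Acvr1c and Acvr2a by -0.00 (0.992) and 0.04 (0.870).

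**Figure D5:**
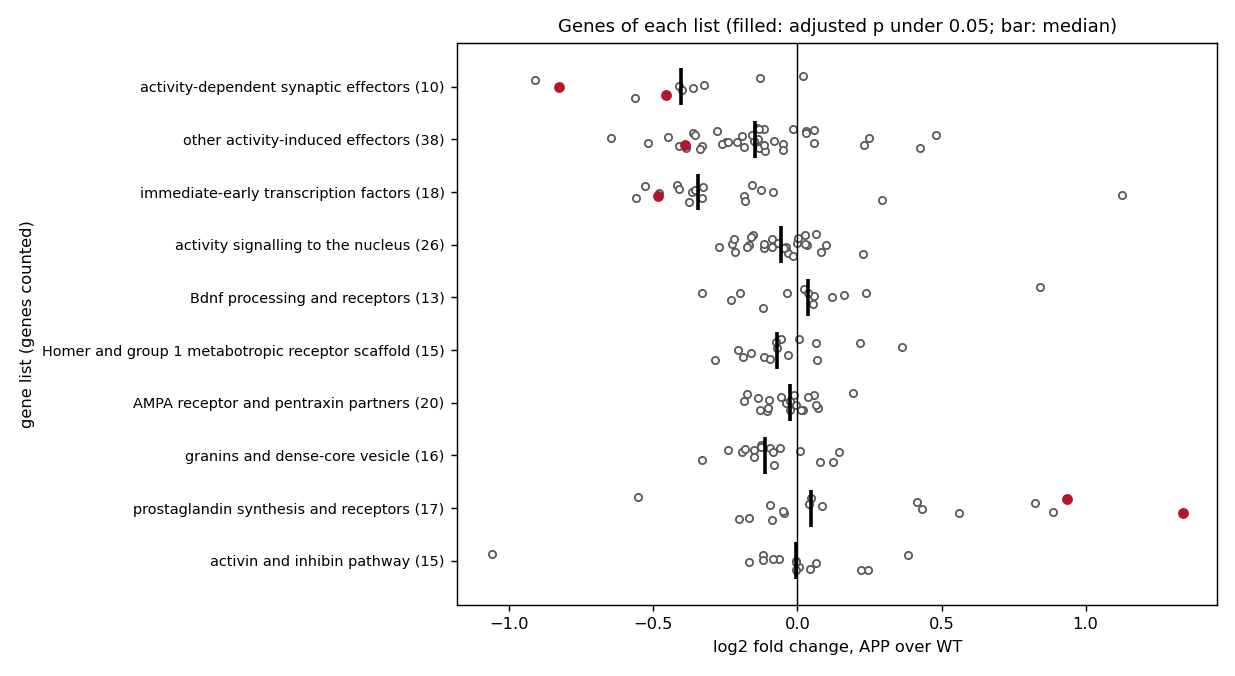
Log2 fold change of APP over WT (horizontal axis) for the counted genes of each list, 1 point a gene, filled at an adjusted p under 0.05 and with a bar at each median. The 10 effectors have the lowest median, -0.41, followed by the immediate-early transcription factors at -0.34, and the filled points to the right of 0 are Hpgds and Tbxas1.

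Markers of microglia, astrocytes and oligodendrocytes moved with the groups, while endothelial markers went in both directions. All 12 microglial markers were above 0, with a summed level of 452 to 554 CPM in APP and 283 to 286 CPM in WT, and so were all 9 astrocyte markers, at 4726 to 5106 CPM and 3867 to 4243 CPM, and all 10 oligodendrocyte markers, at 1671 to 1907 CPM and 1246 to 1376 CPM. Of 15 markers of excitatory cortical neurons, 13 were below 0, with a median of -0.13, 0 at an adjusted p under 0.05 in edgeR's quasi-likelihood test, 1 with DESeq2 and 5 at an unadjusted p under 0.05. No counted marker of these lists was at 0 in all libraries. The 10 endothelial markers had 7 below 0 and 3 above, with a summed level of 85.7 to 87.1 CPM in APP and 82.7 to 90.9 CPM in WT. The 8 counted hippocampal markers had 4 below 0 and 4 above, with a summed level of 278 to 332 CPM in APP and 242 to 269 CPM in WT. Of 12 hypothalamic markers, 7 were counted, all above 0, with a summed level of 6.27 to 9.69 CPM in APP and 1.18 to 1.84 CPM in WT. Of 8 thalamic markers, 6 were above 0, all with groups that did not overlap, and the summed level was 97.0 to 108 CPM in APP and 82.6 to 83.5 CPM in WT. The share of all features higher in APP without overlap was not worked out. Of 10 inhibitory neuron markers, 7 were below 0, with Pvalb at -0.54, Cck at -0.40 and Vip at -0.33 (adjusted p 0.0615, 0.162 and 0.119), and Calb2 was higher past both cut-offs at 1.07 (adjusted p 0.0176), with a summed level of 593 to 687 CPM in APP and 671 to 701 CPM in WT. The median of the 10 effectors, -0.41, lay below that of the excitatory markers, and the part of cell makeup in the effectors' values was not tested.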

How the data were processed

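After depletion of ribosomal RNA, the authors sequenced pairs of 100 bases with a stranded protocol, aligned them with FANSe2 to Ensembl mouse transcripts with up to 7 mismatches, and deposited raw counts per transcript with at least 10 reads. The Ensembl release is not given in the sources used here. CASAVA 1.8 and edgeR are named in the submitters' processing notes. The deposited log CPM of each library (4 columns) and the authors' own comparison (4 columns of log fold change, mean, p-value and FDR) were not used. The WT columns were matched to mice by number, the APP columns only to their group. Annotated antisense genes overlap Bdnf and Inhba, and 2 genes on the same strand, Gm47075 and Gm47088, overlap Homer1 by 2015 and 1639 bases. Whether the counting used strand was not stated. P-values refer to the spread between single mice, which with 2 mice a group was estimated partly from the spread shared across genes.

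Transcript identifiers were looked up in GENCODE M21, where 98.2% matched, and the counts of a gene's transcripts were added up, giving 18386 features. No feature fell below a filter of 10 counts. The main test was edgeR 4.0.16's quasi-likelihood test (R 4.3.3) with TMM and no covariate, adjusted by Benjamini-Hochberg over all features, or over all 37539 transcripts, with cut-offs of 0.05 for the adjusted p and 1.5-fold for the change. Fold changes are APP over WT. An exact permutation test of 2 against 2 cannot go below 0.333. Libraries of a group differed beyond counting noise, with chi-square per degree of freedom of 28.7 in APP and 5.27 in WT. Counting intervals cover counting error only, since the reads carry no molecular identifiers. Motifs and figures used Python 3.11.15, pandas 2.3.3, numpy 2.4.6, scipy 1.17.1 and matplotlib 3.10.9. The tests were checked on simulated counts.

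The members and lists were chosen with earlier results of these data known. Named genes are the 10 members and their transcripts, list genes past both cut-offs, and a list of partners named whatever their values. Rgs4, Atf3, Ccn1, Pvalb, Cck, Vip and Calb2 were named after their values were seen. Alternatives were DESeq2 1.42.0, edgeR's exact and likelihood ratio tests, other scalings and filters, sums by deposited symbol, other cut-offs and leaving out each library.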

Additional observations from a re-analysis of the deposited data

How the results depend on the processing

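Over 8 alternatives that kept all libraries, 76 of 80 log2 fold changes of single genes kept their direction and their call past both cut-offs together, 1 lost its call, 3 gained one and 0 changed sign. The setting without a filter is among the 8 and repeats the main fit, since no feature fell below the filter, so its agreement was fixed in advance. The side of the adjusted p threshold alone changed in 13 of 80, for Arc, Homer1, Npas4, Ptgs2 and Vgf. Leaving out each library in turn gave 30 of 40 that kept direction and call, with 2 calls lost, 5 gained and 3 changes of sign, all in values near 0. Nptx1 ranged from -0.27 to 0.00169 (without APP-4), and Scg2 from -0.0380 (without APP-4) to 0.0765 (without APP-3), with -0.0289 without WT-2. The side of the adjusted p threshold changed in 13 of these 40. The adjusted p of Vgf, for example, was 0.00514 without APP-3 and 0.485 without WT-2.

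Of the 10 genes, Arc passed both cut-offs. The exact test and the likelihood ratio test placed 2 past both, Arc and Npas4, and DESeq2 placed 1, Npas4 in place of Arc. With the adjusted p alone there were 2 genes, with a fold change of at least 2 there were 0, and leaving out a library gave 0 to 3. Of the 24 transcripts, 2 passed both, against 1 with DESeq2, 5 with the adjusted p alone (an alternative chosen after seeing the data), and 2 to 5 on leaving out a library. Of the other list genes 2 passed both, against 6 with the exact test and 6 with the likelihood ratio test, 4 with the adjusted p alone, 1 at a fold change of 2, and 0 to 12 on leaving out a library (0 without WT-1, 12 without APP-4). The median of the 10 genes was -0.41, and between -0.57 (without WT-1) and -0.25 (without WT-2) on leaving out a library. Where a library is left out, its group's lone library is assumed to vary like the other group. The cause of these changes was not tested.

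No paired analysis was possible because the APP columns carry the numbers 3 and 4, which the WT columns and the sample titles do not share. With 2 mice a group, a low adjusted p rests on the spread shared across genes. At 110 to 216 counts, the interval of Inhba spans -0.85 to 0.05.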
